A study of Rattus norvegicus with 23 samples.

Results

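The transcripts followed here belong to 9 genes of MHC class I antigen processing and of the interferon response: B2m, Psme1, Psme2, Psmb8, Psmb9, Tap1, Ifitm3, Irf9 and Irf1. Every probe set whose platform annotation gives 1 of these symbols was taken, which gave 13 probe sets. The array names 14217 genes by a probe set of their own, among 31042 probe sets that are not controls. They were measured in the CA3 field of the hippocampus, microdissected from male Long-Evans rats that had received no treatment, with 1 Affymetrix Rat Genome 230 2.0 array per animal. Aged impaired rats (n = 8) and aged unimpaired rats (n = 6) were 24 to 26 months old, and young rats (n = 9) were 6 months old. The aged groups were separated by a learning index from the water maze: unimpaired animals scored within the young range and impaired animals scored worse. That index alone divides the aged animals, and the tissue holds every cell type of the field.

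MHC class I molecules show peptides from inside a cell at its surface, where T cells read them. A heavy chain pairs with the invariant light chain beta-2 microglobulin (B2m). Its peptides are cut by the proteasome, whose interferon-induced form carries the catalytic subunits Psmb8 and Psmb9 and can be capped by the activator made of Psme1 and Psme2, and the transporter subunit Tap1 helps to carry them into the endoplasmic reticulum. Interferons induce these genes. Irf9 is a DNA-binding factor that acts with Stat2 in the response to type I interferon, Irf1 is a transcription factor induced by interferon gamma, and Ifitm3 is an interferon-induced membrane protein that limits virus entry. In brain tissue, microglia express B2m and class I genes, and neurons can express them too.

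The upstream sequences of the genes are shown because 2 short elements connect them to interferon: the core of the interferon-stimulated response element, searched as GAAANNGAAA, and the core of the gamma-activated site, searched as TTCNNNGAA, both on either strand. All 9 genes had an entry in the RefSeq promoter table (build GRCr8), each window covering 250 bases before the annotated start and 50 after it. The response element core lay in 5 of the 9 windows (B2m, Psme2, Psmb8, Tap1 and Ifitm3), against 3.92% of all 33469 windows. The gamma-activated core lay in 4 (Psmb8, Ifitm3, Irf9 and Irf1), against 8.87% of all windows, and 1 or the other lay in 7 of the 9, against 12.3%. Psme1 and Psmb9 held neither set of letters in this window. A match is a description of the letters and not a binding site, and the 2 patterns were not overlapping in any printed window.

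For the 5 genes that could be tested on the arrays, the 250 bases before the start read as follows, 5′ to 3′ on the gene's strand, with a matched core in capitals.
B2m (chr3:129549080-129549329, plus strand): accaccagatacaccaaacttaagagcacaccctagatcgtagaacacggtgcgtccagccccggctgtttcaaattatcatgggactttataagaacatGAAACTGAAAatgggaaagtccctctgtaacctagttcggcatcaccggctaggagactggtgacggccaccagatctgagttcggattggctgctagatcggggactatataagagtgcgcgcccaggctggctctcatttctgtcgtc
Psme1 (chr15:33038721-33038970, plus strand): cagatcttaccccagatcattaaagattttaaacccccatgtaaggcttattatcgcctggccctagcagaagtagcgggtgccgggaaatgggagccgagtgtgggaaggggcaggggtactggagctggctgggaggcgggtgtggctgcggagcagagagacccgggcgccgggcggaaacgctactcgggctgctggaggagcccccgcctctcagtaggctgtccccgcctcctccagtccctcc
Psme2 (chr15:33052752-33053001, minus strand): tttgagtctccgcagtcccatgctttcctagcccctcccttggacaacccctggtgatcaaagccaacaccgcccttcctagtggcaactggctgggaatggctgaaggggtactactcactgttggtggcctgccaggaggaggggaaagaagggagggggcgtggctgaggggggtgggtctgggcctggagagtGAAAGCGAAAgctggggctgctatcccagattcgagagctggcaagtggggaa
Ifitm3 (chr1:205541759-205542008, minus strand): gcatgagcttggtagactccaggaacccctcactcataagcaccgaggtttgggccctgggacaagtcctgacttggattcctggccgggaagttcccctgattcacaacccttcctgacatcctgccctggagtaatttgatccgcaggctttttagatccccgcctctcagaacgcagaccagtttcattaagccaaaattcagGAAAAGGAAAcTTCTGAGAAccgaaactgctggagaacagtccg
Irf9 (chr15:33065586-33065835, plus strand): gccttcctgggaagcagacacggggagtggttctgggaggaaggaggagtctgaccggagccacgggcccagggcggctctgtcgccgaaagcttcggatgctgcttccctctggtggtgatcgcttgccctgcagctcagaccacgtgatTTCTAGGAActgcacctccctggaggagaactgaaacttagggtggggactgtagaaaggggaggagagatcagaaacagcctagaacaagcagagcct
The B2m core began 150 bases before the start and the Psme2 core began 53 bases before it. In Ifitm3 the response element core began 44 bases before the start and the gamma-activated core began 33 bases before it. The Irf9 core, of the gamma-activated kind, began 99 bases before the start.

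For 3 of the genes too dim to be tested, the stretch around the core is given, again with the core in capitals. The Tap1 and Psmb8 cores match on the opposite strand, so that they read as the reverse complement of the pattern.
Tap1 (chr20:4668645-4668674, minus strand): cggtggctgcTTTCGGTTTCttcttcctct
Psmb8 (chr20:4657016-4657045, minus strand): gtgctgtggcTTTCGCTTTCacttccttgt
Irf1 (chr10:38417783-38417811, plus strand): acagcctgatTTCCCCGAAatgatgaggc
The Tap1 core began 121 bases before the start, the Psmb8 core shown 4 bases before it and the Irf1 core 142 bases before it. The Psmb8 core shown, of the response element kind, runs across the annotated start. Psmb8 also holds a gamma-activated core, not printed, that began 245 bases before the start. Tap1 and Psmb9 are transcribed away from each other, with starts 457 bases apart, so that their windows share 44 bases.

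The deposited log2 values ran from 2.195, the floor of the scale, to 14.85. The 23 arrays were much alike, with medians of 3.388 to 3.458, between 32.4% and 33.4% of probe sets at the floor, and a mean correlation with the other arrays of 0.9959 to 0.9974. The lowest correlation belonged to aged impaired array 2, which recurs below. A probe set was tested where it reached log2 4 on at least 6 arrays, which held for 14647 probe sets and for 7 of the 13 described here, covering B2m, Psme1, Psme2, Ifitm3 and Irf9. The 7 lay above log2 4 on all 23 arrays, with 4.299 as their lowest value, so that no group alone brought them past the filter. Levels of different probe sets are not compared, because each probe set has its own affinity. The number of arrays limits the precision. The limma p-values set a difference against the spread within groups. With 1 array per animal, that spread holds the variation of animals, dissection and arrays together.

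Transcripts of 4 of the 5 testable genes were higher in the aged CA3 than in the young one, while none differed detectably between the aged groups. Between aged impaired and young rats, 5 of the 7 probe sets passed an adjusted p of 0.05 and all 5 were higher: both probe sets of B2m, 1 of Psme1, 1 of Ifitm3 and 1 of the 2 of Irf9. Over all probe sets tested, 9.76% passed in this comparison, and 3.88% passed and were higher. Between aged unimpaired and young rats, 4 of the 7 passed, all higher, against 2.06% of all probe sets and 1.37% that passed and were higher. That count was 2 of 7 without aged impaired array 5, without aged unimpaired array 2, 4 or 6, or without young array 2, 3, 4, 7, 8 or 9, and it was 2 with no filter and 1 with the replicate block. Without 1 array, the 302 probe sets behind the 2.06% were 175 to 382. With both aged groups set against young, 5 of the 7 passed, against 6.9% of all and 3.34% that passed and were higher. The genes, and the lists below, were chosen with earlier results of these data known. An excess of their counts over these shares is thus no independent evidence. The comparisons with young share the same 9 young arrays, so they are not independent of each other. In bulk tissue, a change in the number of cells of a type cannot be told apart from a change in RNA per cell.

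**Figure D1:**
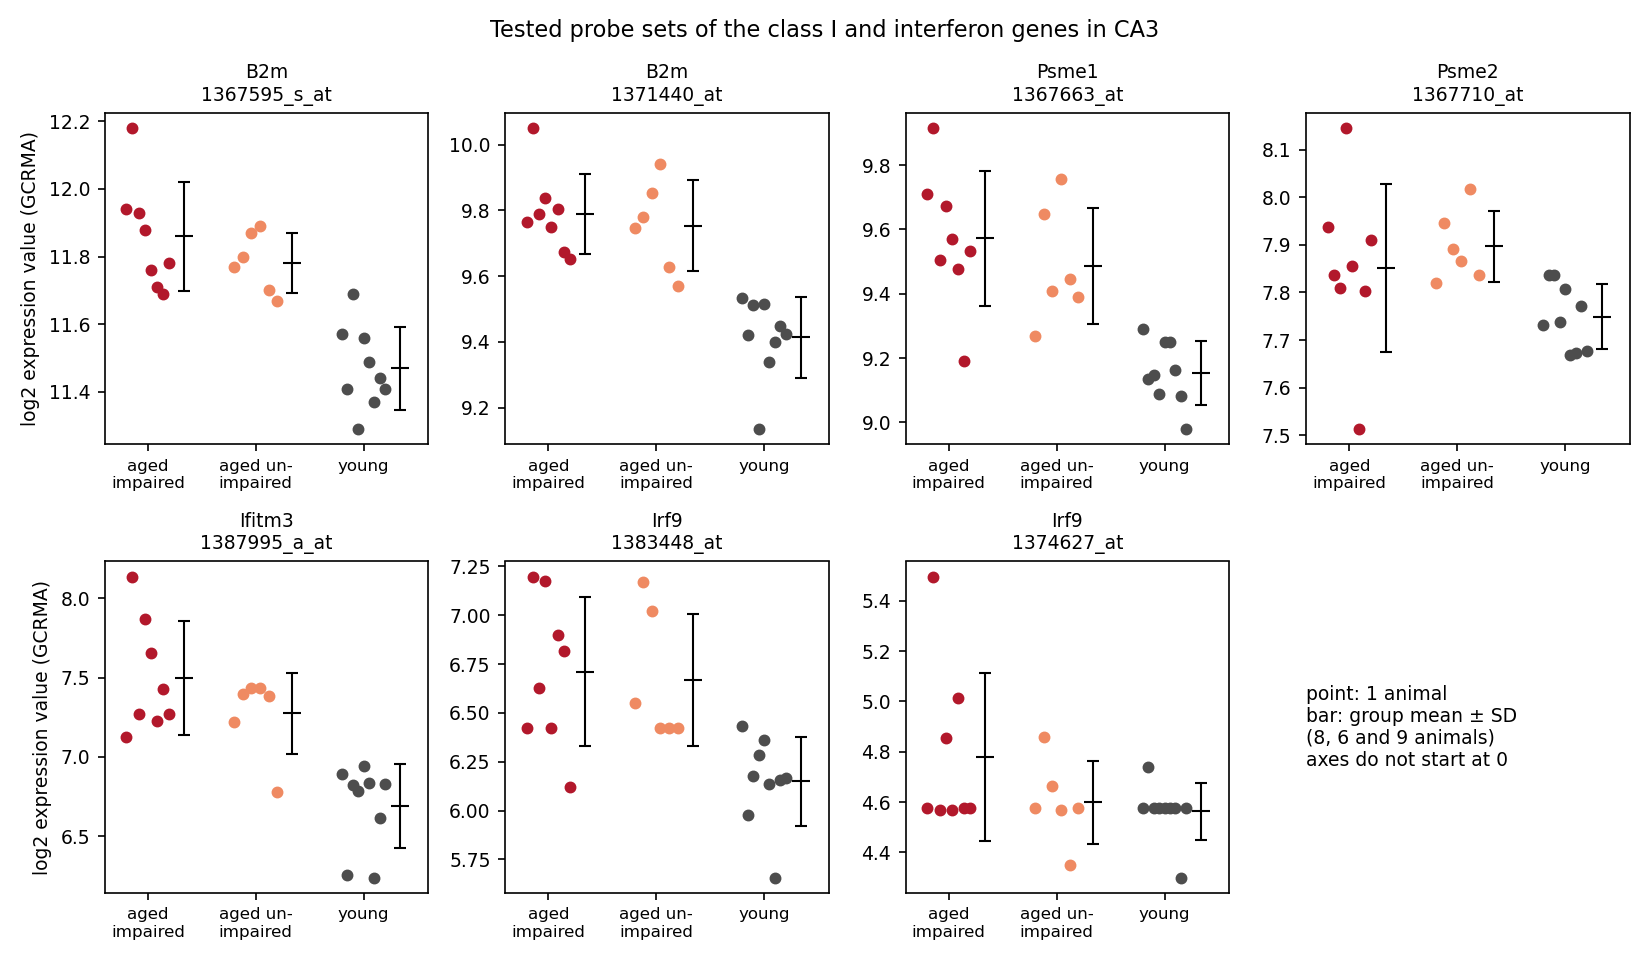
Log2 expression of the 7 tested probe sets in each animal, aged impaired, aged unimpaired and young from left to right, with the group mean ± SD as a bar (n = 8, 6 and 9) and a separate y axis for each probe set. For B2m 1371440_at every aged animal lies above every young animal, and for Irf9 1374627_at most animals share 1 value.

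B2m, the light chain shared by all class I molecules, was measured by a pair of probe sets that moved alike. Probe set 1367595_s_at had a lowest, median and highest log2 value of 11.69, 11.83 and 12.18 in aged impaired rats, of 11.67, 11.78 and 11.89 in aged unimpaired rats, and of 11.29, 11.44 and 11.69 in young rats. All 8 aged impaired and 5 of 6 aged unimpaired animals lay above the highest young animal, the nearest by less than the rounding of these values. The share of all tested probe sets with such counts of animals, here and below, was not computed. Group means were 11.86 ± 0.161 (SD, n = 8) in aged impaired rats, 11.78 ± 0.0884 (n = 6) in aged unimpaired rats and 11.47 ± 0.123 (n = 9) in young rats. The log2 difference from young was 0.39 ± 0.06 (SE) in aged impaired rats, a 1.31-fold level, with an adjusted p of 0.000789 from limma. In aged unimpaired rats it was 0.31 ± 0.07, a 1.24-fold level, with an adjusted p of 0.0168.

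The other B2m probe set, 1371440_at, did not overlap between aged and young animals. Its lowest, median and highest log2 values were 9.652, 9.777 and 10.05 in aged impaired rats, 9.57, 9.763 and 9.941 in aged unimpaired rats, and 9.135, 9.423 and 9.535 in young rats. All 8 aged impaired and all 6 aged unimpaired animals lay above the highest young animal. The log2 difference from young was 0.38 ± 0.06 (SE) in aged impaired rats (1.30-fold, adjusted p 0.000797) and 0.34 ± 0.07 in aged unimpaired rats (1.26-fold, adjusted p 0.00818). Across the 23 animals, after each group's mean was subtracted, the pair of B2m probe sets correlated at 0.81.

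Psme1, the alpha subunit of the proteasome activator, was higher in both aged groups, and its partner Psme2 did not pass. Psme1 1367663_at had a lowest, median and highest log2 value of 9.191, 9.551 and 9.915 in aged impaired rats, 9.269, 9.428 and 9.757 in aged unimpaired rats, and 8.979, 9.148 and 9.29 in young rats. The groups overlapped at the margin, with 7 of 8 aged impaired and 5 of 6 aged unimpaired animals above the highest young animal. The log2 difference from young was 0.42 ± 0.08 (SE) in aged impaired rats (1.34-fold, adjusted p 0.00232) and 0.33 ± 0.08 in aged unimpaired rats (1.26-fold, adjusted p 0.0414). The second Psme1 probe set, 1394006_at, lay at the floor of 2.195 on 22 of 23 arrays and at 2.199 on the other, and carries no information on the difference.

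The call of Psme1 in aged unimpaired rats sat close to the threshold. It ended in 12 of the 23 fits that left out a single array, with adjusted p-values from 0.0194 to 0.122. The removals that ended it were those of aged impaired arrays 5 and 8, aged unimpaired arrays 2, 4, 6 and 8, and young arrays 2, 3, 4, 7, 8 and 9. The call in aged impaired rats held in all 23.

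Psme2, the beta subunit of the same activator, gave smaller differences. Probe set 1367710_at had a lowest, median and highest log2 value of 7.513, 7.846 and 8.145 in aged impaired rats, 7.82, 7.879 and 8.018 in aged unimpaired rats, and 7.669, 7.739 and 7.837 in young rats. In aged impaired rats 4 of 8 animals lay above the highest young animal and 1, array 6, lay below the lowest, so the group was wider than the young one (SD 0.176, against 0.0683 in young). The log2 difference from young was 0.10 in aged impaired rats (95% interval -0.017 to 0.221, adjusted p 0.263) and 0.15 ± 0.06 (SE) in aged unimpaired rats (adjusted p 0.224). Without aged impaired array 6 the first of these became 0.15 with an adjusted p of 0.0439. Psme1 and Psme2 correlated at 0.28 across animals after group means were subtracted.

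The rest of the proteasome was described from a list of its own. Of 17 further proteasome genes and activators tested, 0 rose and 0 fell in aged impaired rats by the adjusted p, with a median log2 difference of -0.03, close to that of all tested genes (-0.02). Psmb5, the constitutive subunit that Psmb8 replaces, differed by -0.11 (adjusted p 0.0534) in aged impaired rats, and Psmb10, the remaining interferon-induced subunit, by -0.03 (adjusted p 0.781). In aged unimpaired rats 0 of the 17 rose and 0 fell as well, with a median of -0.04. Over all probe sets tested, 9.76% passed in aged impaired and 2.06% in aged unimpaired rats. With both aged groups against young, Psma5, a structural subunit of the core particle, fell by 0.14 on the log2 scale (adjusted p 0.0498) and no other gene of the list passed.

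The inducible catalytic subunits, the transporter and Irf1 were too dim to be tested. Psmb8 1367786_at had a lowest, median and highest log2 value of 2.789, 2.792 and 3.268 in aged impaired rats, 2.789, 3.007 and 3.218 in aged unimpaired rats, and 2.195, 2.613 and 2.789 in young rats. The highest young value thus equalled the lowest aged one, and 7 of the 23 arrays carried the identical value 2.789. In a fit with no filter, added to show the size only, Psmb8 differed from young by 0.35 ± 0.10 (SE) in aged impaired rats (adjusted p 0.0734) and by 0.43 in aged unimpaired rats (adjusted p 0.096). With both aged groups set against young it was 0.39 (adjusted p 0.028). All these values lie near the floor, where GCRMA compresses differences.

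Psmb9, the inducible subunit encoded beside Tap1, showed less. Its lowest, median and highest log2 values were 3.551, 3.551 and 3.849 in aged impaired rats, 3.551, 3.567 and 3.845 in aged unimpaired rats, and 2.932, 3.549 and 3.551 in young rats, and 12 arrays carried the identical value 3.551. With no filter its log2 difference from young was 0.21 in aged impaired rats (adjusted p 0.24) and 0.21 in aged unimpaired rats (adjusted p 0.465). Tap1 lay at the floor of 2.195 on all 23 arrays with both of its probe sets. A value at the floor does not show that the transcript is absent, only that this scale gives no difference for it.

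**Figure D2:**
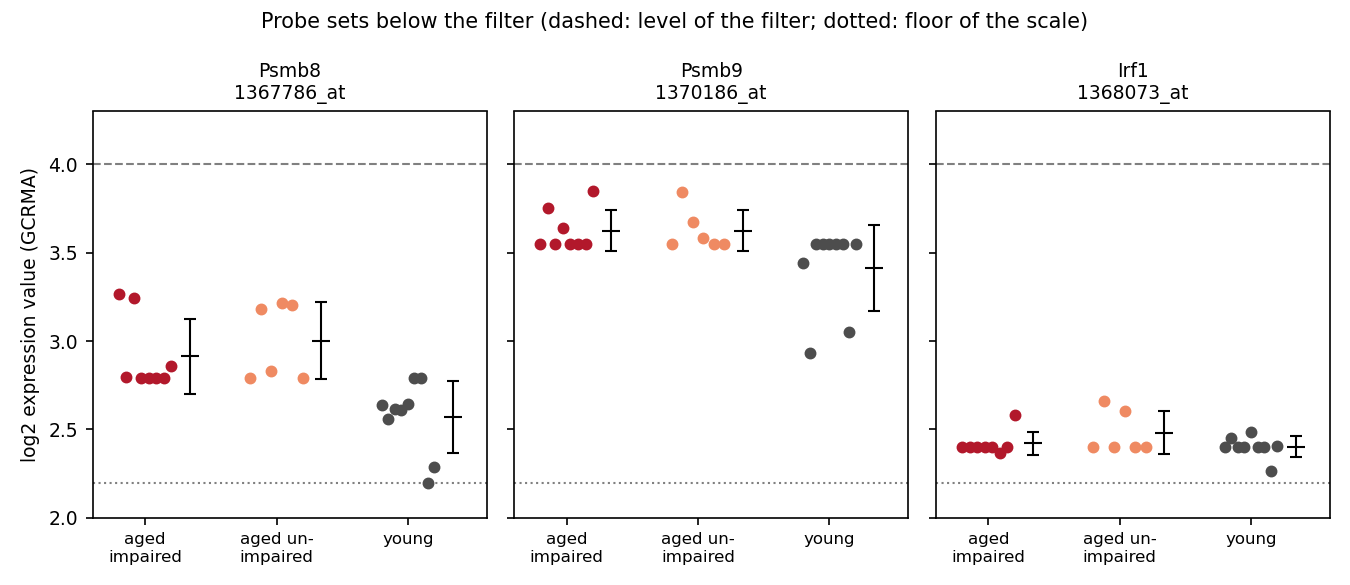
Log2 expression of Psmb8, Psmb9 and Irf1 in each animal, aged impaired, aged unimpaired and young from left to right, with the group mean ± SD (n = 8, 6 and 9). The dashed line is the filter at log2 4 and the dotted line the floor at 2.195. All points lie below the filter, and rows of points at 1 height are animals with the identical deposited value.

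The rest of the class I pathway was described from a list of heavy chains and loading factors. Of its 48 genes, 24 were on the array with a probe set of their own and 11 were tested. Erap1, the aminopeptidase that trims peptides in the endoplasmic reticulum, was the only one of the 11 to pass. It was higher by 0.26 ± 0.06 (SE) in aged impaired rats (adjusted p 0.00999) and by 0.25 ± 0.07 in aged unimpaired rats (adjusted p 0.0446). Over all probe sets tested, 9.76% passed in aged impaired and 2.06% in aged unimpaired rats. In aged impaired rats 1 of 11 is close to that share. Group means of Erap1 were 7.853 ± 0.0659 in aged impaired rats, 7.845 ± 0.108 in aged unimpaired rats and 7.591 ± 0.169 in young rats (SD, n = 8, 6 and 9). The median of the 11 genes was 0.15 in aged impaired rats, against -0.02 for all tested genes, and 0.20 in aged unimpaired rats.

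The heavy chains themselves were hard to read. RT1-CE16, a class I chain, differed from young by 0.37 ± 0.23 (SE) in aged impaired rats (adjusted p 0.316), with an SD of 0.717 within that group. The RT1 genes are near copies of each other and vary between rat strains, so a probe set can take signal from more than 1 of them and their values are uncertain. Calreticulin (Calr), a chaperone of the loading complex, differed by -0.12 ± 0.05 (adjusted p 0.121). Among the 13 genes of the list that were not tested, Tap2 reached at most 2.651, Tapbp 2.625 and Nlrc5, an activator of class I transcription, 2.252.

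Irf9 was higher in aged impaired rats by 1 of its probe sets. Probe set 1383448_at had a lowest, median and highest log2 value of 6.12, 6.72 and 7.198 in aged impaired rats, 6.425, 6.488 and 7.168 in aged unimpaired rats, and 5.656, 6.167 and 6.434 in young rats. The groups overlapped, with 5 of 8 aged impaired and 3 of 6 aged unimpaired animals above the highest young animal. The log2 difference from young was 0.56 ± 0.15 (SE) in aged impaired rats (1.47-fold, adjusted p 0.0197). In aged unimpaired rats it was 0.52 ± 0.16 (1.43-fold), which did not pass (adjusted p 0.0932).

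The same exact value, 6.425, stood on 2 aged impaired and 3 aged unimpaired arrays for this Irf9 probe set. Such repeats are common in the table: 33.2% of tested probe sets have 1 value on 5 or more arrays. The call in aged impaired rats held in all 23 fits without a single array, and ended when no filter was applied (adjusted p 0.054) and when the gap between a pair of control rows entered the model (0.47, adjusted p 0.0626). The second Irf9 probe set, 1374627_at, had 4.576 on 12 of the 23 arrays. Its log2 difference from young was 0.22 ± 0.11 in aged impaired rats (adjusted p 0.197) and 0.04 in aged unimpaired rats (adjusted p 0.917). The 2 probe sets of Irf9 correlated at 0.60 across animals after group means were subtracted, and they disagree on the call.

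Irf1 was measured near the floor in all groups. Its lowest, median and highest log2 values were 2.368, 2.403 and 2.579 in aged impaired rats, 2.403, 2.403 and 2.663 in aged unimpaired rats, and 2.263, 2.403 and 2.484 in young rats. The groups overlapped throughout, and 13 arrays held the identical value 2.403. With no filter its log2 difference from young was 0.02 in aged impaired rats and 0.08 in aged unimpaired rats (adjusted p 1 and 0.64).

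The list of receptors and signal carriers of interferon held 26 genes, 23 of them on the array and 17 tested. Of the 17, 2 passed in each aged group against young, beside 9.76% of all probe sets in aged impaired and 2.06% in aged unimpaired rats. In aged impaired rats 1 rose and 1 fell: Ptpn11, a tyrosine phosphatase of growth factor and cytokine signalling, was higher by 0.37 ± 0.06 (SE, adjusted p 0.0011), and Ptpn2, a phosphatase that acts on Jak and Stat proteins, fell by 0.20 (adjusted p 0.0272). In aged unimpaired rats 2 rose and 0 fell: Ptpn11 by 0.35 ± 0.07 (adjusted p 0.00791) and Stat3, a transcription factor of cytokine signalling, by 0.39 ± 0.10 (adjusted p 0.0436). Stat2, the partner of Irf9, differed by 0.08 ± 0.09 in aged impaired rats (adjusted p 0.614), and Ifngr1, a chain of the interferon gamma receptor, by 0.21 ± 0.11 (adjusted p 0.229). The median of the 17 genes was 0.04 in aged impaired and 0.08 in aged unimpaired rats. Interferons themselves were not measurable: of 10 interferons and inducing cytokines on the array 0 were tested, Ifnb1 reached at most 2.195 and Ifng 2.245.

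Ifitm3 showed the largest difference from young of the 5 genes tested. Probe set 1387995_a_at had a lowest, median and highest log2 value of 7.126, 7.349 and 8.136 in aged impaired rats, 6.777, 7.39 and 7.437 in aged unimpaired rats, and 6.239, 6.822 and 6.943 in young rats. All 8 aged impaired animals lay above every young animal, and so did 5 of 6 aged unimpaired animals, the exception being array 8. Group means were 7.497 ± 0.357 (SD, n = 8) in aged impaired rats, 7.275 ± 0.256 (n = 6) in aged unimpaired rats and 6.691 ± 0.267 (n = 9) in young rats. The log2 difference from young was 0.81 ± 0.14 (SE) in aged impaired rats, a 1.75-fold level, with an adjusted p of 0.00124. In aged unimpaired rats it was 0.58 ± 0.15, a 1.499-fold level, with an adjusted p of 0.0436.

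As for Psme1, the Ifitm3 call in aged unimpaired rats ended in 12 of the 23 fits without a single array, with adjusted p-values from 0.021 to 0.105. Those were the removals of aged impaired array 5, aged unimpaired arrays 1, 2, 4, 6 and 7, and young arrays 2, 3, 4, 7, 8 and 9. The Ifitm3 call in aged impaired rats held in all 23.

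Further interferon-induced genes were described from a list that leaves out the 9 genes above. This list held 65 genes, 48 of them on the array and 11 tested. In aged impaired rats 0 of the 11 rose and 1 fell by the adjusted p: Ifitm10, a relative of Ifitm3, fell by 0.19 (adjusted p 0.0304). Whether interferon induces Ifitm10 was not examined here, so its fall is not read as that of an interferon-induced gene. In aged unimpaired rats 0 of the 11 rose and 0 fell. Over all probe sets tested, 9.76% passed in aged impaired and 2.06% in aged unimpaired rats. Ifitm2, another relative of Ifitm3, differed from young by -0.09 ± 0.11 (SE) in aged impaired rats (adjusted p 0.655). Mx1, an antiviral GTPase, differed by -0.02 ± 0.52 (adjusted p 0.987), with an SE too wide to read, and Eif2ak2, the kinase activated by double-stranded RNA, by 0.17 ± 0.08 (adjusted p 0.172). The median of the 11 was 0.00 in aged impaired and 0.07 in aged unimpaired rats.

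Most of the classical interferon-induced genes gave no usable value here. Of the 37 that were not tested, 35 never reached log2 4 on any array and 10 lay at the floor on all 23, among them Ifit1, Ifit3, Cxcl10 and Zbp1. Isg15 reached at most 2.415 and Rsad2 at most 3.218. A rise of these transcripts below the range of the scale was thus not detectable.

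**Figure D3:**
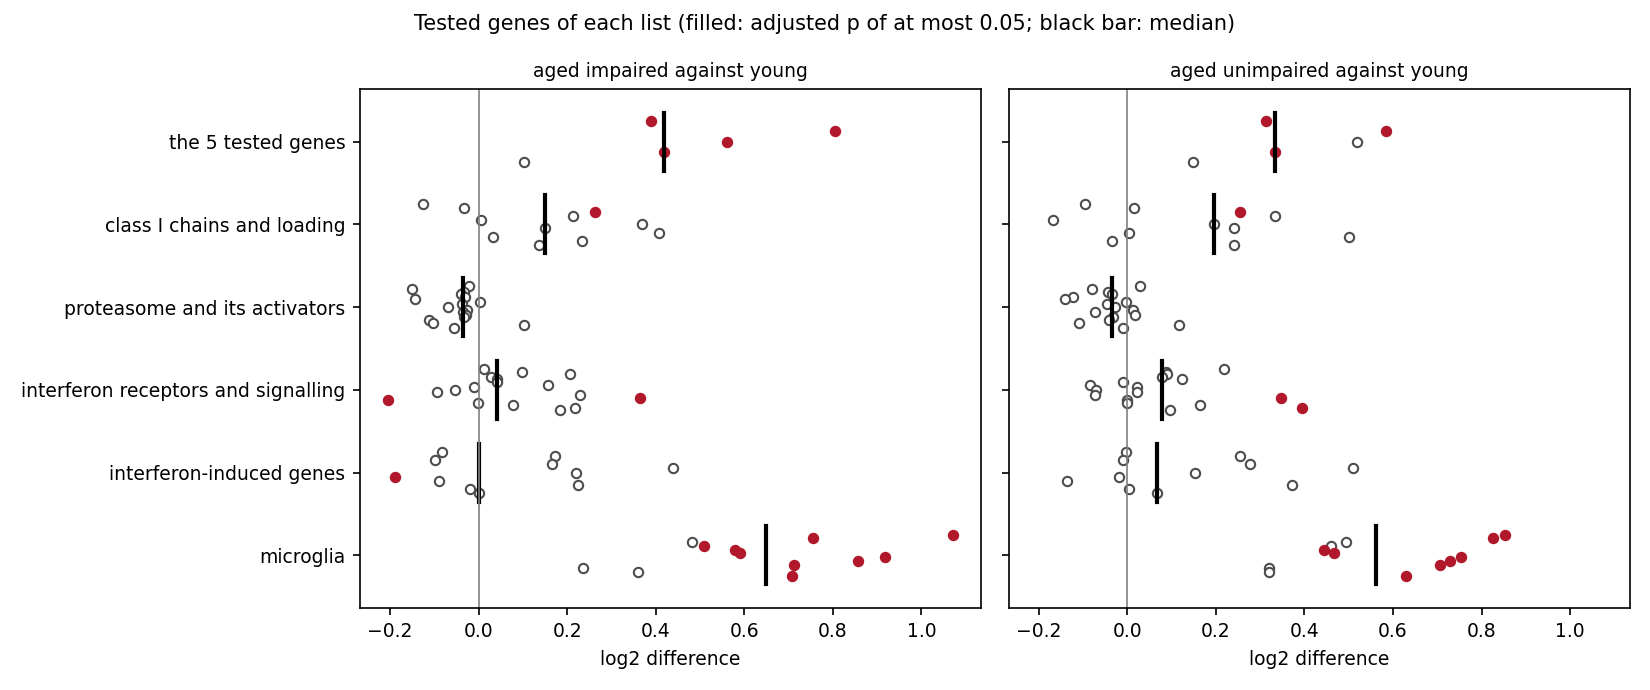
Log2 difference of each tested gene from young, by list, in aged impaired rats (left panel) and aged unimpaired rats (right panel). Filled points passed an adjusted p of 0.05 and the black bar is the list's median. Of the 5 measured genes described here 4 passed in aged impaired rats and 3 in aged unimpaired rats. The proteasome list holds 0 filled points in both panels. Over all probe sets tested, 9.76% passed in aged impaired and 2.06% in aged unimpaired rats, and 3.88% and 1.37% passed and were higher. The genes and lists were chosen with earlier results of these data known, so the counts are no independent evidence.

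Whether the genes follow learning in old age was asked by setting aged impaired against aged unimpaired rats. Of the 7 probe sets 0 passed in limma, 0 had an unadjusted p under 0.05, and 0 passed under any other setting tried, while 0.778% of all probe sets passed and 0.676% passed and were higher. That share is not stable: the 114 probe sets behind it were 2 without aged unimpaired array 4, 447 without aged unimpaired array 7, and 0 with only the groups compared or with the control gap as covariate. The largest log2 difference was that of Ifitm3, 0.22 (95% interval -0.098 to 0.541, adjusted p 0.543). B2m 1367595_s_at differed by 0.07 (-0.069 to 0.22) and B2m 1371440_at by 0.04 (-0.103 to 0.176). Psme1 differed by 0.09 (-0.095 to 0.265) and Psme2 by -0.05 (-0.178 to 0.086). Irf9 1383448_at differed by 0.04 (-0.297 to 0.378) and Irf9 1374627_at by 0.18 (-0.063 to 0.423). All 7 intervals leave room for differences of either sign.

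**Figure D4:**
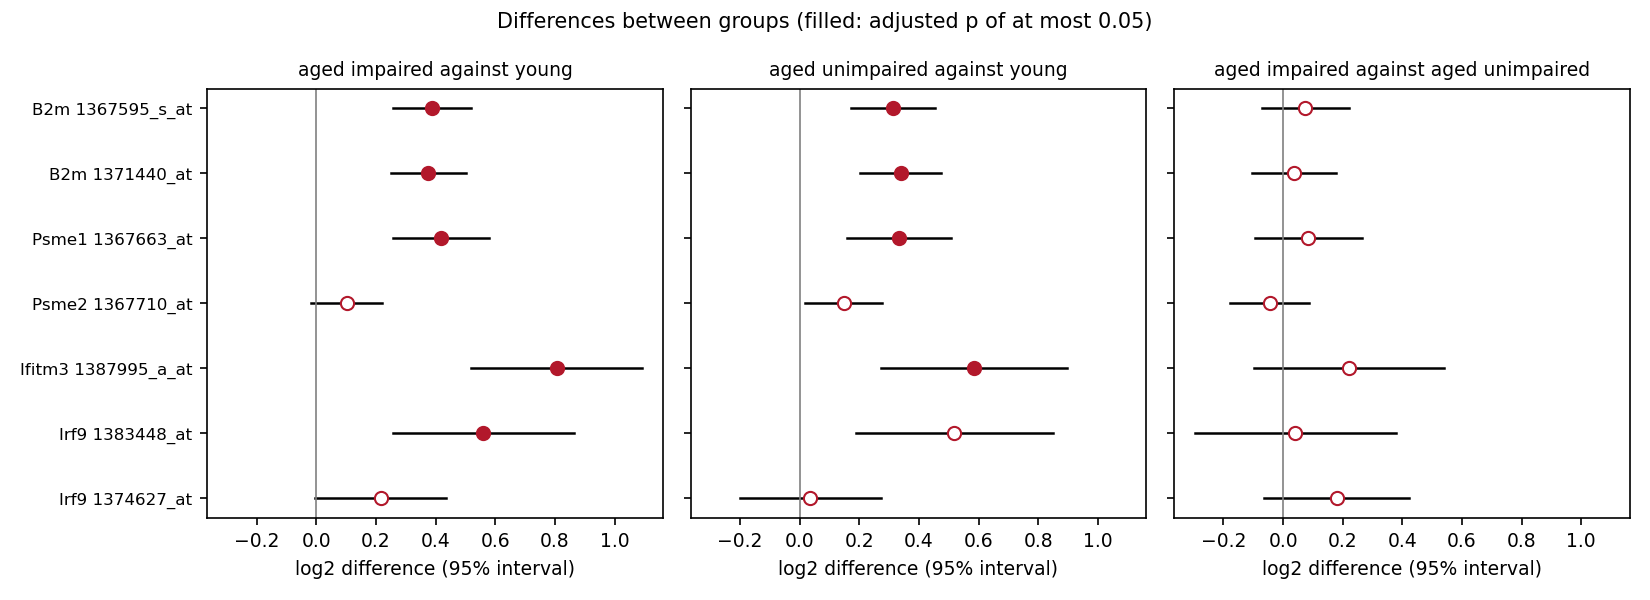
Log2 difference of the 7 tested probe sets with its 95% interval, with aged impaired rats set against young ones (left), aged unimpaired rats against young ones (middle), and the impaired against the unimpaired (right). Filled points passed an adjusted p of 0.05. In the right panel every interval includes 0.

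A single animal stood at the top for most of these transcripts. Aged impaired array 2, the array with the lowest mean correlation with the others, was the highest of all 23 for 6 of the 7 tested probe sets, with 12.18 for B2m 1367595_s_at, 8.136 for Ifitm3 and 7.198 for Irf9 1383448_at. For Psme2 it was ninth. Without it, the 5 calls in aged impaired rats held: B2m was higher by 0.34 with both probe sets (adjusted p 0.00112 and 0.00162), Psme1 by 0.37 (0.00479), Irf9 1383448_at by 0.49 (0.0441) and Ifitm3 by 0.71 (0.00242). The difference of Irf9 1374627_at became 0.11 without it.

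Across the animals of a group, the genes varied together to unequal degrees. After group means were subtracted, Ifitm3 and Irf9 1383448_at correlated at 0.66 over the 23 arrays, and at 0.59 without aged impaired array 2. B2m 1367595_s_at and Psme1 correlated at 0.67, and at 0.56 without that array. Psme1 and Irf9 1383448_at correlated at 0.23, and at 0.07 without it, while Psme1 and Irf9 1374627_at correlated at 0.49, and at 0.24 without it. Both genes of a pair are read from the same array and the same tissue piece of an animal, and the values carry no test.

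The genes nearest to each were taken by the same measure over all tested probe sets with 1 symbol. For B2m 1367595_s_at the highest correlations were those of Bhlhe41 (0.84), Slc3a2 (0.81) and Pecr (0.79), of which Bhlhe41, a transcription repressor, was itself higher in aged impaired rats by 0.55 (adjusted p 0.000332). For Ifitm3 they were Msn (0.80), which links actin to the membrane, Fcgr2b (0.77), an inhibitory Fc receptor, and Csf1r (0.70), the receptor that microglia need to survive. Fcgr2b was higher in aged impaired rats by 1.64 (adjusted p 0.00196) and Msn by 0.48 (adjusted p 0.00452). For Irf9 1383448_at they were Etv1 (0.70), Rnf114 (0.69) and C1qa (0.69), a complement subunit made by microglia. For Psme1 they were LOC100911177 (0.84), Ppp2r5a (0.84) and Rps24 (0.83), and for Psme2 Srxn1 (0.78), Sec24c (0.77) and Wapl (0.77). Each value is among the highest of all those tested, so it is high in part through that choice, and it carries no test. Leaving out aged impaired array 2 gave 0.71 for Slc3a2, 0.61 for Csf1r and 0.63 for C1qa, while Srxn1 (0.80) and Sec24c (0.78) did not fall.

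Microglial markers moved with the same comparisons. Of 17 markers 16 were on the array and 12 were tested, and 9 of the 12 rose in aged impaired and 8 in aged unimpaired rats. Over all probe sets tested, 3.88% passed and were higher in aged impaired and 1.37% in aged unimpaired rats. The medians of the 12 were 0.65 in aged impaired and 0.56 in aged unimpaired rats, above the differences of B2m and Psme1 and below those of Ifitm3 (0.81 and 0.58). The summed level of the markers on the array, on the linear scale, was 5071 to 9200 in aged impaired rats, 5060 to 6725 in aged unimpaired rats and 3706 to 4695 in young rats, so that neither aged group overlapped young. Aif1, a calcium-binding protein of microglia, was higher by 1.07 in aged impaired rats, Fcer1g, an Fc receptor chain, by 0.92 and P2ry12, a purine receptor, by 0.71. Among the markers not tested, Cd68 lay at the floor on every array, Cx3cr1 reached at most 2.74 and Itgam 2.633. The part of microglia in the differences of the class I and interferon genes was not tested.

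Within groups, 5 of the 7 probe sets, both of B2m among them, followed the microglial level from animal to animal. The relation was not computed for the other tested probe sets, so the share of all that follow it is not known. The mean log2 value of the 12 tested markers was set against each of the 7 probe sets over 23 arrays, each value taken as its deviation from the group mean, with 100000 permutations within groups and two-sided p-values adjusted over the 7 relations. Ifitm3 gave a Pearson r of 0.718 (permutation p 0.00068, adjusted 0.00476) and a Spearman rho of 0.666 (permutation p 0.00198, adjusted 0.0104). Without the 2 arrays farthest from the median marker level, aged impaired 2 and 8, r was 0.611. Within groups r for Ifitm3 was 0.703 among aged impaired, 0.832 among aged unimpaired and 0.706 among young rats.

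B2m and Psme1 passed as well, and the relation of B2m 1371440_at rested largely on those 2 arrays. B2m 1367595_s_at gave an r of 0.663 (permutation p 0.00223, adjusted 0.00747) and a rho of 0.631 (permutation p 0.00298, adjusted 0.0104), with 0.509 without the 2 arrays, and within groups 0.812 in aged impaired rats, 0.306 in aged unimpaired rats and 0.553 in young rats. B2m 1371440_at gave an r of 0.552 (permutation p 0.00731, adjusted 0.0104) and a rho of 0.576 (permutation p 0.00602, adjusted 0.0105), with 0.331 without them, and within groups 0.906 in aged impaired rats, 0.338 in aged unimpaired rats and 0.24 in young rats. Psme1 gave an r of 0.614 (permutation p 0.00746, adjusted 0.0104) and a rho of 0.529 (permutation p 0.0182, adjusted 0.0255), with 0.518 without them, and within groups 0.615 in aged impaired rats, 0.554 in aged unimpaired rats and 0.742 in young rats. These relations share the arrays and the RNA of each animal.

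For Irf9 and Psme2 the values were mixed. Irf9 1383448_at gave an r of 0.651 (permutation p 0.0032, adjusted 0.00747) and a rho of 0.617 (permutation p 0.00508, adjusted 0.0105), with 0.484 without the 2 arrays, and within groups 0.83 in aged impaired rats, 0.181 in aged unimpaired rats and 0.675 in young rats. Irf9 1374627_at gave an r of 0.494 (permutation p 0.067, adjusted 0.0781) and a rho of 0.276 (permutation p 0.247, adjusted 0.247), and its r was 0.0666 without them. Psme2 gave an r of 0.266 (permutation p 0.369, adjusted 0.369) and a rho of 0.264 (permutation p 0.245, adjusted 0.247), and its r was 0.433 without them.

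**Figure D5:**
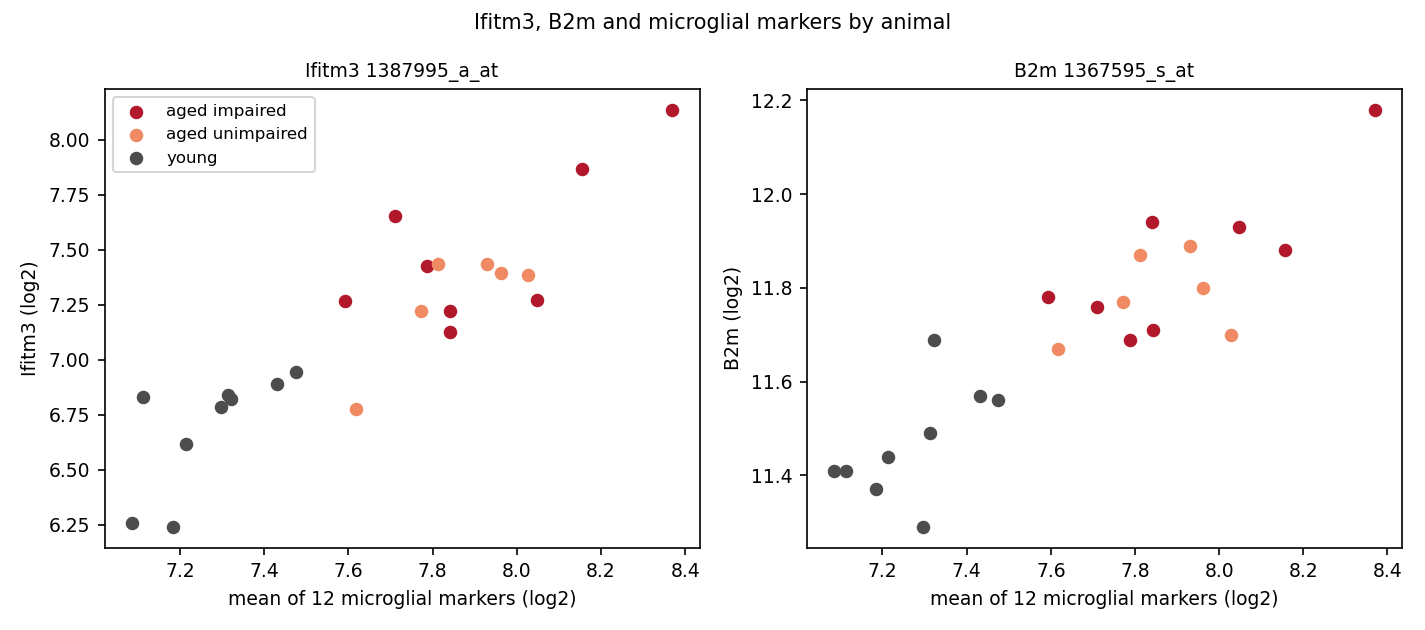
Log2 expression of Ifitm3 (left) and B2m 1367595_s_at (right) in each animal against the mean log2 value of 12 microglial markers in the same animal, coloured by group. Both axes are log2 values from the arrays. Young animals lie at the lower left, and aged impaired array 2 lies at the upper right of both panels.

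Other cell types were checked in the same way. Of 15 T cell and NK cell markers, all on the array, 2 were tested and 0 passed in any comparison. Cd3d, Cd4 and Cd8a lay at the floor on all 23 arrays, and 7 of the 15 did. The summed level of the T cell and NK cell markers was 106.1 to 113.2 in aged impaired rats, 106.5 to 106.9 in aged unimpaired rats and 104.8 to 108.4 in young rats. Since 13 of the 15 never reached log2 4, this sum holds mostly values at or near the floor. It cannot show a steady content of these cells. Both B cell markers on the array lay at the floor on all 23 arrays, and 0 of 4 markers of perivascular macrophages were tested. Of 6 tested endothelial markers 0 changed in either aged group against young, with a summed level of 1195 to 1664 in aged impaired rats, 1232 to 1463 in aged unimpaired rats and 1302 to 1800 in young rats. Hbb, for blood, differed by 0.22 in aged impaired rats (adjusted p 0.513).

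Of 9 markers of CA3 neurons 8 were tested, and the other, Iyd, reached at most 2.25. Against young, 4 of the 8 fell in aged impaired rats (Nrip3, Dkk3, Chgb and Grik5) and 0 in aged unimpaired rats, while 0 of the 8 passed between the aged groups. Their summed level was 17490 to 25740 in aged impaired rats, 22550 to 25290 in aged unimpaired rats and 25040 to 28550 in young rats. Of 8 tested astrocyte markers the same 2 rose in both aged groups, Gfap by 0.62 in aged impaired and 0.53 in aged unimpaired rats, and S100b by 0.21 in each. Of all 14647 probe sets tested against young, 861 passed and were lower in aged impaired and 102 in aged unimpaired rats. Those that passed and were higher were 568 and 200. Of 5 tested oligodendrocyte markers and 4 of CA1 neurons 0 changed in either aged group. The summed level of the CA1 markers varied widely, from 727.9 to 2525 in aged impaired, 1025 to 1508 in aged unimpaired and 339.9 to 1953 in young rats. Their median log2 difference from young was 0.43 in aged impaired and 0.22 in aged unimpaired rats. Of 3 tested markers of meninges and choroid plexus 0 passed, with summed levels of 266.9 to 531.2, 262.2 to 451.8 and 264.2 to 484.8 in the same order of groups. The part of these cell types in the differences described was not tested.

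Several of the 9 genes are neighbours in the genome, and neighbours did not all move together. On rat chromosome 15 the RefSeq order is Psme1, Emc9, Psme2, Rnf31 and Irf9, with the starts of Psme1 and Irf9 26865 bases apart. In aged impaired rats Psme1 and Irf9 were higher, while Emc9, a membrane complex subunit encoded between Psme1 and Psme2, fell by 0.24 (adjusted p 0.0217). Its group means were 7.492 in aged impaired rats, 7.679 in aged unimpaired rats and 7.727 in young rats. Rnf31, the catalytic subunit of the linear ubiquitin ligase, differed by 0.21 ± 0.09 (SE, adjusted p 0.138). On chromosome 20 the order is Psmb8, Tap1 and Psmb9, with the starts of Psmb8 and Psmb9 11969 bases apart, and all 3 lay below the filter.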

How the data were processed

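RNA from CA3 of 23 rats was measured on Affymetrix arrays, 1 per animal. The deposited values are log2 expression values that the authors made with GCRMA, per the submitters' processing notes, and its version is not given in the sources used here. GCRMA corrects background by probe sequence and pulls dim probe sets onto a floor, which repeats exact values and shrinks low differences. Probe sets were named from the platform annotation (20826 with 1 gene, 436 with several, 9780 with none). Of those with 1 gene, 20758 matched RefSeq by gene ID and 0 symbols changed. The 57 control rows were left out.

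Differences were tested with limma 3.58.1 in R 4.3.3 (lmFit and eBayes, 1 mean per group, 23 arrays, 20 residual degrees of freedom). Probe sets needed log2 4 on at least 6 arrays. P-values were adjusted by Benjamini-Hochberg over all 14647 probe sets tested, and 0.05 was the threshold. The procedure was tested on simulated data. A gene of a list was read from its brightest tested probe set. Named were all probe sets of the 9 genes, list genes that passed (at most 5 per list and comparison) with up to 3 that did not, up to 3 markers per list, and the 3 genes nearest to each gene by correlation. Markers such as Cd3d and the CA3 genes that passed, and the dim genes given by their highest value, were added after their values were seen. The genes and lists were chosen with earlier results of these data known. No 2 arrays held identical values. Replicate numbers are shared between groups, and same-numbered arrays correlated at -0.139 to 0.132, so they were not treated as pairs. Promoter windows are from RefSeq, build GRCr8. The control gap is the row named GAPDH 5 prime minus the row named GAPDH middle. Those names may not match their rows, since the row named GAPDH 3 prime lay at 2.198 to 2.299.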

Additional observations from a re-analysis of the deposited data

Results flagged for a closer look

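For the 7 tested probe sets and the mean of the microglial markers, each group was checked for a sample far from the others by Dixon's test. Of 24 groups in all, 4 stood out. Chance alone marks about 1 in 20 where values are independent and normally spread. Here the groups share arrays, and 7 of the 9 young values of Irf9 1374627_at were identical. The 4 can thus not be set against that rate. For B2m 1371440_at, aged impaired array 2 was the highest at 10.05, with the next animal at 9.836, a gap of 0.536 of the group's range. For the same probe set, young array 4 was the lowest at 9.135, with the next at 9.339. For Ifitm3 1387995_a_at, aged unimpaired array 8 was the lowest at 6.777, with the next at 7.222, and it was the only aged animal within the young range. For Irf9 1374627_at, young array 8 was the lowest at 4.299, with the next at 4.576, the value most arrays share.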

How the results depend on the processing

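Of 941 values of single probe sets under other settings, 895 kept their direction and their side of the threshold, 31 lost the call, 3 gained it and 12 turned sign. The 895 overstate stability, because a difference stays identical where the array left out belongs to neither group compared. Most of the lost calls were those of Psme1 and Ifitm3 in aged unimpaired rats. The count of probe sets changed between aged impaired and young rats was 768 with no filter, 937 with the control gap as covariate and 870 with the replicate block, against 1429, and 1017 to 1808 without 1 array. Between aged unimpaired and young rats it was 126 with no filter, 672 with array weights and 86 with the replicate block, against 302, and 175 to 382 without 1 array. Between aged impaired and aged unimpaired rats it was 2 with no filter, 180 with quantile normalization, 222 with array weights, 4 without aged impaired arrays 1 and 2 (chosen after seeing the data), and 0 with the control gap, with the replicate block or with only the groups compared, against 114, and 2 to 447 without 1 array. With both aged groups against young it was 509 with no filter and 527 with the replicate block, against 1010, and 615 to 1285 without 1 array. Centring each array gave 768 higher and 768 lower between aged impaired and young rats, against 568 and 861. Of the 7 probe sets, those changed in aged unimpaired rats were 2 with no filter and 1 with the replicate block, against 4, and 2 to 4 without 1 array. Those in aged impaired rats were 4 with no filter and 4 with the control gap as covariate, against 5. Those in aged impaired rats and in both aged groups were 5 to 6 without 1 array. Under the replicate block the B2m 1367595_s_at call in aged unimpaired rats ended (adjusted p 0.054), as did those of Psme1 (0.129) and Ifitm3 (0.101), which also ended with no filter (0.108 and 0.123). With array weights Irf9 1383448_at passed in aged unimpaired rats (adjusted p 0.0496). Signs turned for Irf9 1374627_at in aged unimpaired rats without aged unimpaired array 2 (-0.016; -0.016 to 0.0857 without 1 array). Between the aged groups they turned for B2m 1367595_s_at with the control gap (-0.000284), for Psme2 without aged impaired array 6 (0.0029; -0.0875 to 0.0029 without 1 array), for B2m 1371440_at without aged impaired array 2 (-0.000287) and without arrays 1 and 2 (-0.0024; -0.000287 to 0.0743 without 1 array), and for Irf9 1383448_at with array weights (-0.0135), with the control gap (-0.114), and without aged impaired array 2 (-0.0288) or 4 (-0.0254) or aged unimpaired array 6, 7 or 8 (-0.00796; -0.0288 to 0.141 without 1 array). The cause of these shifts was not tested, except that no filter adjusts over 31042 probe sets and that the block leaves fewer degrees of freedom. Signal near the floor limits Psmb8, Psmb9, Tap1, Irf1 and most interferon-induced genes.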
